A study of Mus musculus with 2 samples.

Results

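Genes of calprotectin and of the neutrophil granules were followed in dendritic cells lacking miR-155 and in wild-type dendritic cells, both after lipopolysaccharide (LPS). The set holds 10 genes chosen by name: S100a8, S100a9, Camp, Ngp, Ltf, Lcn2, Prtn3, Elane, Mpo and Cebpe. Of these, 9 had a probe set that the platform annotation assigns to exactly 1 gene, of 18193 genes named in this way, and each of the 9 had 1 probe set. Cebpe, which encodes a transcription factor of late granulocyte maturation, was not analysed here because no probe set was assigned to it alone in the annotation used. The members were 8 genes above the floor (defined below) on both arrays and 1, Ltf, above it on the wild-type array only.

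The knockout sample was miR-155-/- and the control was wild type, both C57BL/6 mice (strain C57BL/6J), with 1 Affymetrix array per genotype. In both, bone marrow cells were kept in 20 ng/ml recombinant GM-CSF, a myeloid growth factor, over 7 days and then given medium with 10 ng/ml of LPS, an endotoxin of bacterial outer membranes. No untreated cells were measured, so the effect of LPS on these genes cannot be given. The sources used here give neither the age or number of the mice nor the length of the LPS exposure. The labels call the cells dendritic cells, but their growth protocol speaks of macrophages. GM-CSF cultures of bone marrow are mixtures of myeloid cells, and lower signal from fewer cells of a type cannot be told apart from less RNA per cell.

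Calprotectin is a complex of the calcium-binding proteins S100A8 and S100A9, stored in the cytosol of neutrophils and made by monocytes, that takes up metals needed by microbes. Neutrophil granules form in waves during maturation: primary granules, filled in promyelocytes, hold myeloperoxidase and serine proteases, and secondary granules, filled later, hold lactoferrin and the cathelicidin precursor. C/EBP factors and PU.1 drive transcription of many of these genes in myeloid cells. Lcn2 differs from the other secondary granule genes in that macrophages and dendritic cells also induce it in response to LPS.

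The deleted microRNA and 4 promoters are shown because the first defines the knockout and the others belong to 2 pairs of neighbouring genes whose values are compared below. The mature microRNA is shown with its seed (bases 2 to 8) in capitals. The promoters run from 250 bases before to 50 after the transcript start and are printed 5′ to 3′ on the strand of the gene. Capitals there mark matches to the C/EBP motif TTGCNNAA or the PU.1 motif GAGGAA on either strand. All sequences are from RefSeq, mouse build GRCm38.p6. S100a8 and S100a9 lie side by side on chromosome 3 on opposite strands, at chr3:90668821-90669120 (plus strand) and chr3:90695672-90695971 (minus strand) for these promoters. Prtn3 and Elane are neighbours on chromosome 10, with promoters at chr10:79879417-79879716 and chr10:79886062-79886361, both on the plus strand.
mmu-miR-155-5p: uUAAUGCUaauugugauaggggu
S100a8: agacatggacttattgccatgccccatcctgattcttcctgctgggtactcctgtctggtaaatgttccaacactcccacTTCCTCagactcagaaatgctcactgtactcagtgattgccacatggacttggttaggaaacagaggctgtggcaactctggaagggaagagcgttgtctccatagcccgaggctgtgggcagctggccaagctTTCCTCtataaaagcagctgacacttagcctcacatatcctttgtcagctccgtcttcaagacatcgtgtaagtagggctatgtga
S100a9: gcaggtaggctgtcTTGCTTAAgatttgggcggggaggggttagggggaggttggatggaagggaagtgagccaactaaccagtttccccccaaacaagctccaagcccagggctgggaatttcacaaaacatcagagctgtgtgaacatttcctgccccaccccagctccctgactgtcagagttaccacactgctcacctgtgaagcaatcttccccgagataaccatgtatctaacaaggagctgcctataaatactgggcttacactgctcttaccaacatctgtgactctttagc
Prtn3: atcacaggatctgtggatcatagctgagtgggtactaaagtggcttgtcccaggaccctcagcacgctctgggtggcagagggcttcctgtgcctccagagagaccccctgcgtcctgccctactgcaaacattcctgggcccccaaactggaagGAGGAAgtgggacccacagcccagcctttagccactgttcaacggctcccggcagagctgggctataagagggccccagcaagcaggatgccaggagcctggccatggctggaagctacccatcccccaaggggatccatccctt
Elane: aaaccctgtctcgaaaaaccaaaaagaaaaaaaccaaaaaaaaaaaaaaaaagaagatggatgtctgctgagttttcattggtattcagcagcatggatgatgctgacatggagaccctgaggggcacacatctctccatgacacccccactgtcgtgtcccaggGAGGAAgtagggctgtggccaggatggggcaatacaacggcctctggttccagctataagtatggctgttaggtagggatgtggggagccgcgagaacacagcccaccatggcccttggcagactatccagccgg

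The S100a8 window held 2 PU.1 matches, at positions -170 to -165 and -36 to -31 from the transcript start, and the S100a9 window held 1 C/EBP match at -236 to -229. Prtn3 and Elane each held 1 PU.1 match, at -95 to -90 and at -85 to -80. Of the 9 members with a promoter sequence, 4 held the C/EBP letters (S100a9, Ngp, Ltf and Lcn2) and 6 held the PU.1 letters (S100a8, Ltf, Lcn2, Prtn3, Elane and Mpo). Among 32851 mouse promoters of the same length, 10.8% held the C/EBP motif and 28.3% the PU.1 motif. No match overlapped another motif, Camp held neither, and a match describes the letters only.

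The arrays had no common scale. The median deposited intensity, without control probe sets, was 78.3 on the knockout array and 58.4 on the wild-type array, and the median measured gene was 0.54 higher on the log2 scale in the deposited knockout values. Intensities were therefore quantile normalized, which gives both arrays the same distribution, and any normalized value under their median of 67.6 was raised to that value, the floor. Of all genes, 11878 lay above the floor on at least 1 array and are called measured. Every difference is a log2 value of knockout over wild type, so a negative one means lower in knockout cells. Mir155hg, the transcript that carries miR-155, had a normalized signal of 159 in knockout and 1136 in wild-type cells. The dendritic cell genes Itgax (5331 and 4290) and Cd74 (11156 and 11584) gave high signal in knockout and wild-type cells, as did Csf1r (11268 and 9826) and Adgre1 (8568 and 7458), which mark macrophages. Probe sets that read 18S ribosomal RNA had deposited signals of 389 to 582 on the knockout and 95.1 to 126 on the wild-type array.

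With 1 array per genotype no test was possible, and every comparison describes these 2 arrays. The one error that the arrays hold is how far probe sets naming one gene differ from each other, an SD of 0.29 over 11653 probe sets of 4410 genes. It was 0.34 at low, 0.29 at middle and 0.25 at high signal. Since each member had a single probe set, this SD was taken from other genes, and it holds no variation between mice or cultures.

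The calprotectin subunits differed in opposite directions after normalization, and the granule genes other than Lcn2 were all lower in knockout cells. S100a8 was 1.35-fold higher, S100a9 1.33-fold lower, and 6 granule genes ranged from 1.11-fold lower (Mpo) to at least 1.65-fold lower (Ltf). Lcn2 differed by 0.01. A size rule of at least 0.32 on the log2 scale was used in place of a test. By it 6 of 9 members were lower and 1 was higher, whereas 13.8% of all measured genes were lower and 15% were higher. That count depended on the scaling. With each array centred on its median, or scaled on the hybridisation controls, 3 members (Camp, Ltf and Prtn3) were lower past the rule, against 8.95% and 6.64% of measured genes, and S100a9, Ngp and Elane were not. In the deposited values without scaling, 1 member (Ltf) was lower and 3 were higher, against 1.77% and 73.7% of measured genes. No member passed 2-fold, which 0.615% of measured genes did as lower and 0.572% as higher. The median over the 9 members was -0.36, against 0.01 over all measured genes, of which 48.5% were lower.

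**Figure D1:**
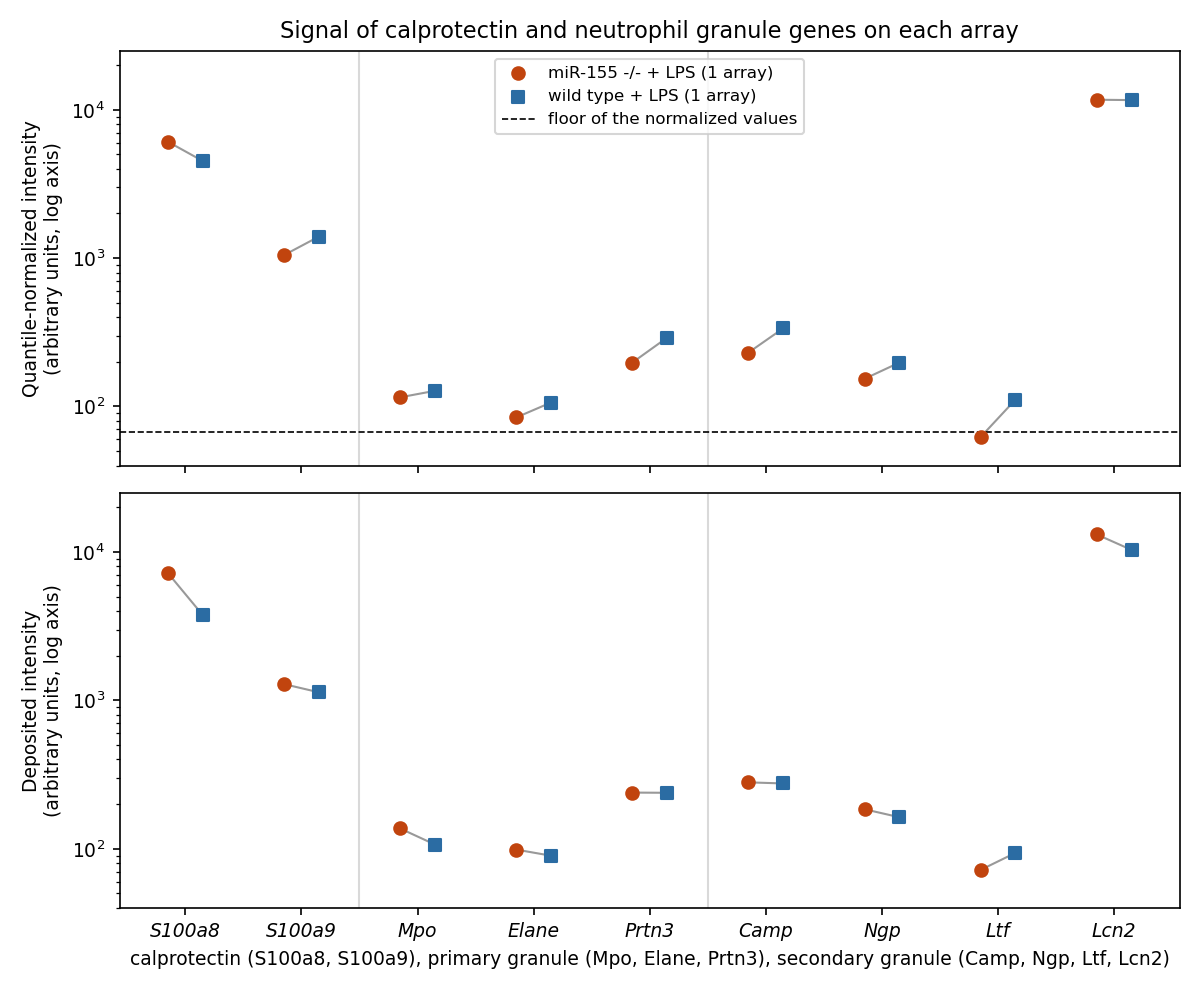
Signal of each calprotectin and granule gene on the knockout array (circles) and the wild-type array (squares), 1 array each, with quantile-normalized intensity above and deposited intensity below, both on log axes in arbitrary units. The dashed line is the floor of 67.6. After normalization S100a8 was higher in knockout cells and S100a9 and 6 granule genes were lower, whereas in the deposited values only Ltf was lower.

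S100a8, the smaller calprotectin subunit, had a normalized signal of 6093 in knockout cells and 4517 in wild-type cells. Its difference of 0.43 exceeded that of 91.0% of measured genes and was larger than the SD between probe sets of bright genes. S100a9, the larger subunit, had a normalized signal of 1048 in knockout and 1396 in wild-type cells, a difference of -0.41, and 91.0% of measured genes had a higher difference. The 2 subunits lay on opposite sides of 0, at about the same distance from it.

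In deposited intensity both subunits were higher in knockout cells. S100a8 was at 7227 in knockout and 3764 in wild-type cells, a ratio of 1.92, and S100a9 at 1288 and 1135, a ratio of 1.14. The gap between the subunits did not rest on the scaling: the difference of S100a8 exceeded that of S100a9 by 0.76 in the deposited values, which no constant rescaling of an array can alter, and by 0.85 after quantile normalization. S100a8 was read by a probe set ending in _s_at, a type that can bind more than 1 transcript, and no second probe set of either subunit was there to compare.

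Among primary granule genes, Prtn3, which encodes proteinase 3, had the lowest difference. Its normalized signal was 198 in knockout and 291 in wild-type cells, 1.47-fold lower, and 4.63% of measured genes had a lower difference. Elane, which encodes neutrophil elastase, was at 84.3 in knockout and 106 in wild-type cells, 1.26-fold lower and close to the floor of 67.6. Its difference of -0.34 was no larger than the probe set SD of 0.34 among low-signal genes. Mpo, which encodes myeloperoxidase, was at 115 in knockout and 128 in wild-type cells, a difference of -0.15 that lies within the probe set SD. After quantile normalization all 3 primary granule members were lower, with a median of -0.34. Of the 3, 2 were lower past the size rule, as were 13.8% of all measured genes. With median centring or hybridisation controls only Prtn3 passed it, against 8.95% and 6.64% of measured genes. Mpo differed by 0.007 with hybridisation controls.

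Among secondary granule genes, Camp, the cathelicidin precursor, had a normalized signal of 231 in knockout and 336 in wild-type cells, 1.46-fold lower, and 4.99% of measured genes had a lower difference. Ngp, which encodes neutrophilic granule protein, a relative of the cathelicidins, was at 154 in knockout and 198 in wild-type cells, 1.29-fold lower. Ltf, which encodes the iron-binding lactoferrin, was at 62.3 in knockout cells, under the floor, and at 111 in wild-type cells. It was at least 1.65-fold lower, and as a gene above the floor in wild-type cells only it could count only as lower. These 3 were lower on the normalized scale, Camp by more than the SD of 0.29 for genes of middle signal and Ngp by slightly more than it.

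Lcn2, which encodes lipocalin 2, a protein that binds bacterial iron carriers, stood apart from them. Its normalized signal was 11689 in knockout and 11623 in wild-type cells, a difference of 0.01. It was among the brightest signals, as 51 of 45037 probe sets were brighter on the knockout array and 54 on the wild-type array. Among the 100 genes of highest level the middle of the differences spanned -0.10 to 0.09 (quartiles), a narrow range in which a small value does not show that Lcn2 was unchanged. The median of the 4 secondary granule members was -0.45, and it was -0.54 for the 3 without Lcn2.

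**Figure D2:**
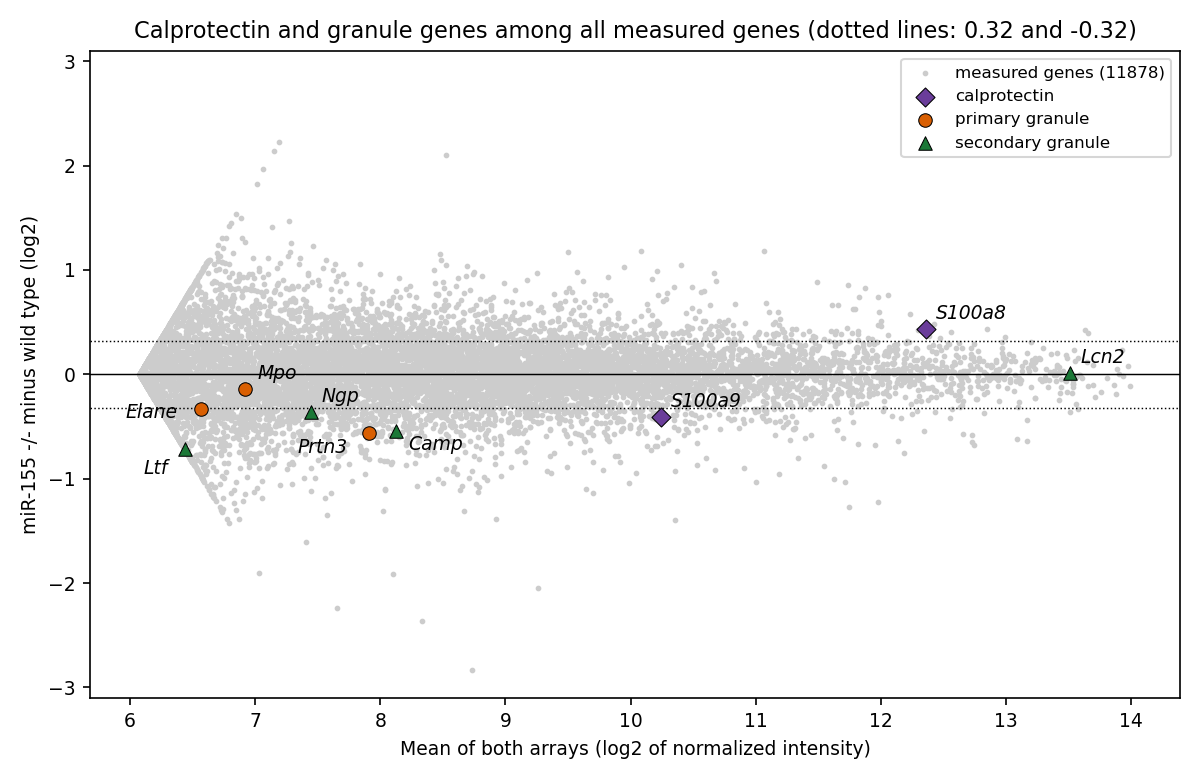
Difference between knockout and wild type (log2) against the mean of both arrays (log2 of normalized intensity) for 11878 measured genes in grey, with calprotectin genes as diamonds, primary granule genes as circles and secondary granule genes as triangles. Dotted lines mark the size rule of 0.32 in either direction. S100a8 lies above the upper line, Lcn2 and Mpo lie between the lines, and the other 6 lie below the lower line.

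The share of genes past the size rule depended on level. Measured genes were divided into low, middle and high ranges of mean level with equal numbers of genes. In the low range, which holds Ltf, Elane and Mpo, 19.8% of genes were lower and 19.8% higher past the rule. In the middle range, which holds Camp, Ngp and Prtn3, 13.3% were lower and 15.7% higher. In the high range, which holds S100a8, S100a9 and Lcn2, 8.16% were lower and 9.44% higher. The dim genes of the set thus lay where differences of this size are more common, and S100a8 and S100a9 where they are less common.

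The direction given for the granule genes is relative to the bulk of genes. In deposited intensity Camp was at 280 in knockout and 276 in wild-type cells, and Prtn3 at 239.3 and 238.5, so these signals were nearly equal on the arrays while the median measured gene was 0.54 higher in the knockout. Ngp was at 185 in knockout and 163 in wild-type cells, Elane at 98.8 and 89.8 and Mpo at 137 and 107. Only Ltf, at 72.1 in knockout and 93.9 in wild-type cells, was lower as deposited. Measured from the median gene under each of 5 scalings (quantile, loess, median centring, hybridisation controls, none), S100a8 lay 0.38 to 0.42 above it. S100a9 lay below it under each of these scalings, at -0.43 to -0.36. Camp lay at -0.56 to -0.51, Prtn3 at -0.57 to -0.53, Ngp at -0.38 to -0.36, Elane at -0.42 to -0.35, Mpo at -0.20 to -0.16 and Ltf at -0.92 to -0.71. Lcn2 moved most with the method, from -0.21 to -0.002.

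**Figure D3:**
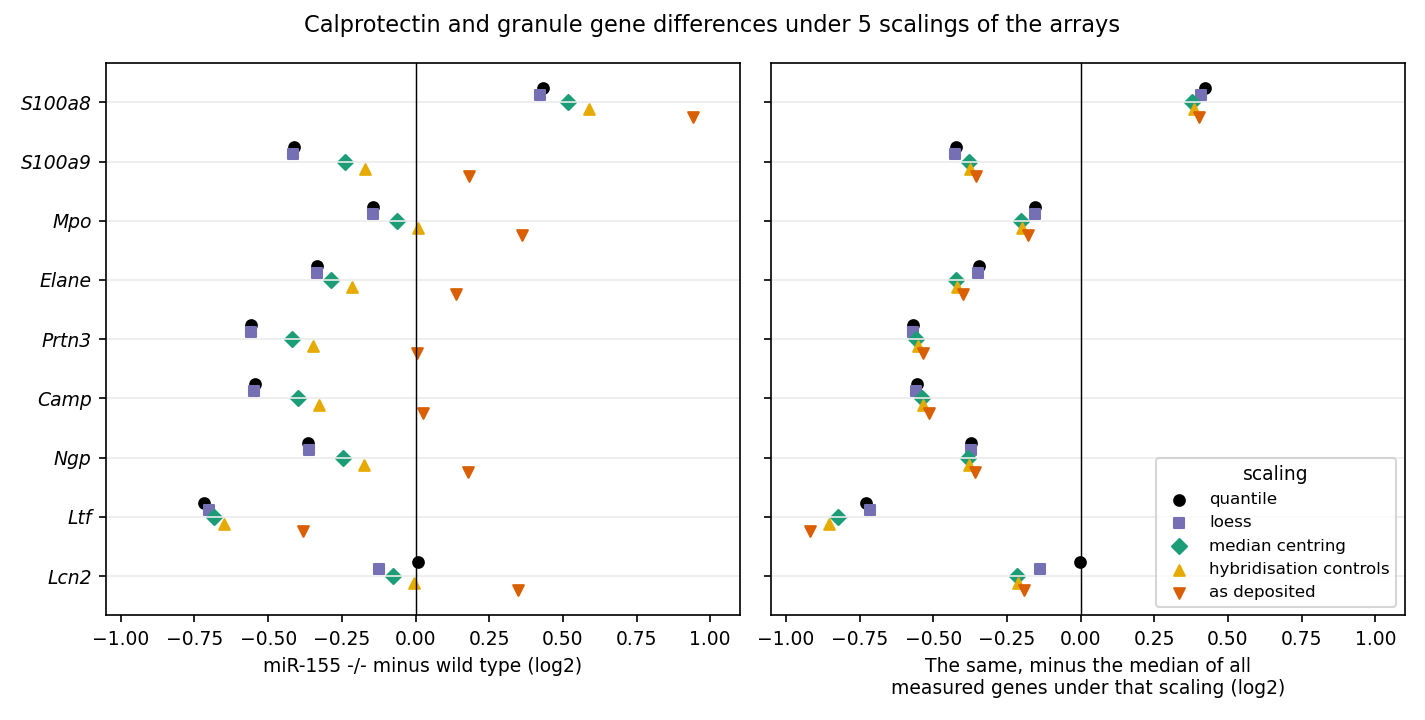
Difference between knockout and wild type (log2) for each calprotectin and granule gene under 5 scalings of the arrays, as given by that scaling on the left and after subtraction of the median of all measured genes on the right. On the left 5 genes that were lower past 0.32 after quantile normalization lie above 0 without scaling, whereas on the right S100a8 lies above 0 and the others at or below it under all 5. Agreement on the right between median centring, hybridisation controls and no scaling was fixed in advance, because these differ by a constant per array.

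The contrast between calprotectin and granule genes rested on S100a8. The calprotectin median (0.01) lay 0.37 above the granule median of -0.36 over 7 genes. With S100a8 alone the contrast was 0.79, and with S100a9 alone it was -0.05. S100a9 thus differed by about as much as Camp, Ngp and the proteases, and S100a8 did not.

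S100a8 and S100a9 belong to a cluster of S100 genes on chromosome 3, and its members did not differ alike. The measured genes next to S100a8 in gene order, S100a6 (4951 in knockout and 4046 in wild-type cells, a difference of 0.29) and S100a4 (6058 and 4701, a difference of 0.37), which also encode calcium-binding proteins, were higher in the knockout, as S100a8 was. S100a10, the annexin A2 partner, had a difference of 0.09 with 2 of 3 probe sets higher. S100a13 (-0.19) and S100a1 (-0.46, with 1 of 2 measured probe sets lower) were lower, as S100a9 was. S100a16 was above the floor in knockout cells only and at least 1.33-fold higher. Of 7 measured S100 genes outside calprotectin, 2 were higher and 1 lower past the size rule, with a median of 0.09. On the other side of S100a9, the measured neighbour Lor, a skin barrier gene, differed by 0.04.

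Camp, Ngp and Ltf share chromosome 9, separated by many other genes. The measured neighbours of Camp, the nucleoside diphosphate kinase gene Nme6 (-0.29) and the cell cycle phosphatase gene Cdc25a (-0.31), were lower as Camp was. The next measured genes beyond them, 3000002C10Rik (0.12) and Map4 (0.01), were not lower. The measured neighbours of Ngp differed in opposite directions, Ptpn23 at 0.34 and Klhl18 at -0.24. Next to Ltf, Ccrl2, which encodes an LPS-inducible chemerin-binding receptor, had a signal of 721 in knockout and 1290 in wild-type cells, a difference of -0.84, and Lrrc2 on its other side lay at the floor. Beside Prtn3 and Elane on chromosome 10, Ptbp1, a splicing regulator, had a difference of -0.33 and Med16, a Mediator subunit, one of -0.24, so that all 4 were lower.

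Other genes of the same granules were mixed. Several, such as Ctsc (8637 in knockout and 9127 in wild-type cells) and Mmp8, were far brighter than the granule members other than Lcn2. The medians of these lists and of the members thus compare genes of unlike signal. Of 5 further primary granule and promyelocyte genes with a probe set, 1 was higher and 1 lower past the size rule, with a median of -0.08. Ctsg, which encodes cathepsin G, a protease packed with elastase, was at 77.4 in knockout and 103 in wild-type cells, 1.33-fold lower. Ms4a3, a marker of granulocyte and monocyte progenitors, was at 115 in knockout and 79.2 in wild-type cells, 1.45-fold higher. Cst7, an inhibitor of cathepsins, had a difference of -0.29, Ctsc, which activates the granule proteases, one of -0.08, and Serpinb1a, an elastase inhibitor, one of 0.28 with 1 of 2 probe sets higher.

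Among 14 other secondary and tertiary granule genes, 2 were higher and 1 lower past the size rule, with a median of -0.06. Arg2 was at 1640 in knockout and 957 in wild-type cells, 1.71-fold higher with 2 of 2 probe sets. It encodes the mitochondrial arginase, whereas the arginase known from granules of human neutrophils is ARG1. Without Arg2, a choice made after its value was seen, 1 of 13 genes was higher and 1 lower, with a median of -0.07. Mmp8, neutrophil collagenase, was at 4845 in knockout and 3736 in wild-type cells, 1.30-fold higher, and Slpi, an inhibitor of elastase, had a difference of 0.25. Hp, which encodes the haemoglobin-binding protein haptoglobin, was at 3058 in knockout and 3932 in wild-type cells, 1.29-fold lower. Mmp9, gelatinase B, had a difference of -0.26 with 2 of 2 probe sets lower, and Pglyrp1, which binds bacterial peptidoglycan, one of -0.25. The NADPH oxidase, which makes superoxide in neutrophils and macrophages alike, was lower in 5 of 5 measured subunits after quantile normalization, with a median of -0.19. Of them 1, Ncf1 (-0.33, with 3 of 3 probe sets), was lower past the size rule. Among all measured genes 48.5% were lower, and 13.8% were lower past the rule. This direction depended on the scaling: as deposited each subunit was higher, with a median of 0.29. With hybridisation controls the median was -0.07.

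**Figure D4:**
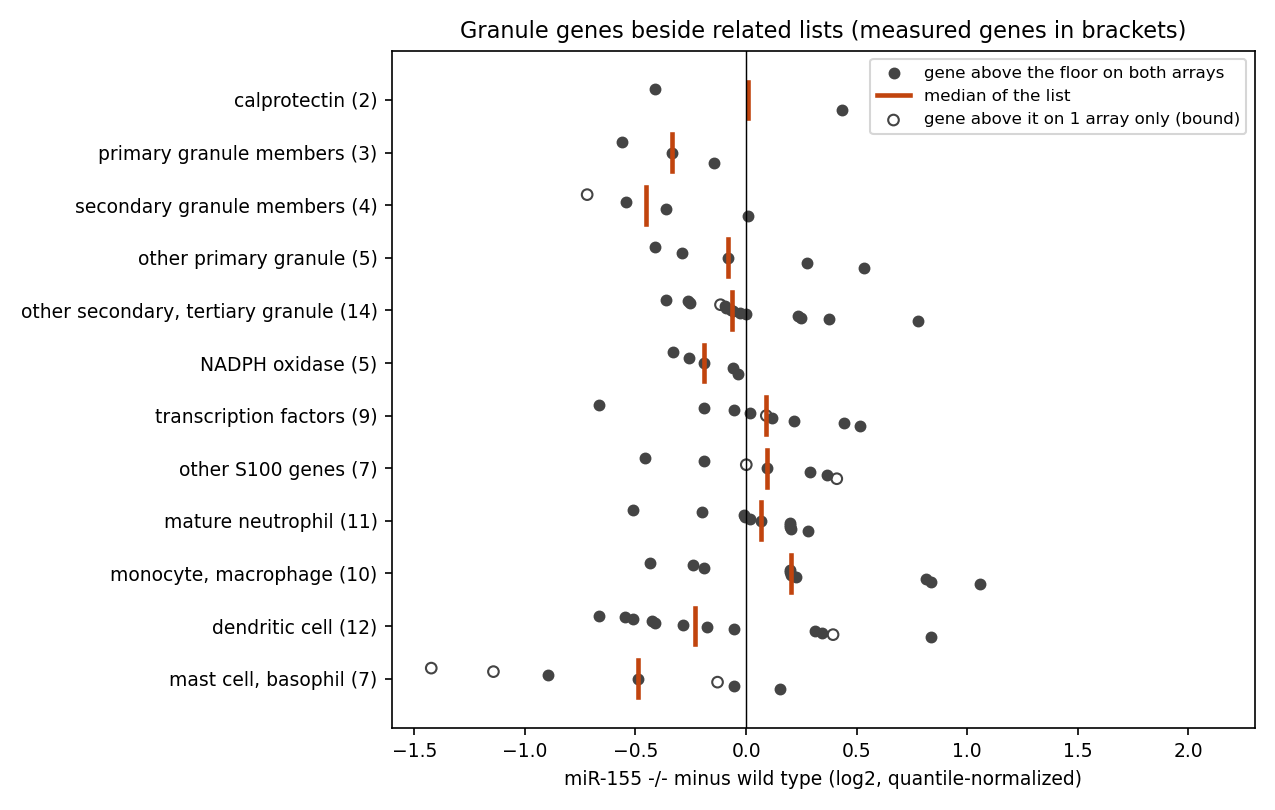
Difference between knockout and wild type (log2, quantile-normalized) of every measured gene in the calprotectin, granule and related lists, with filled points for genes above the floor on both arrays, open points for bounds and vertical bars for list medians. Primary and secondary granule members have medians of -0.34 and -0.45, the other granule lists -0.08 and -0.06, and mature neutrophil markers 0.07. The lists differ in signal level.

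Transcription factors of granulopoiesis had a median of 0.09 over 9 measured genes. Spi1, which encodes PU.1 and is a reported miR-155 target, was at 1056 in knockout and 777 in wild-type cells, 1.36-fold higher. Zeb2, a repressor acting in monocytes, had a difference of 0.52 with 3 of 4 measured probe sets higher. Irf8, which favours monocytes and dendritic cells over granulocytes, was at 2874 in knockout and 4551 in wild-type cells, 1.58-fold lower with 2 of 2 probe sets. Of the C/EBP genes, Cebpa (-0.05), Cebpb (0.12) and Cebpd (0.22) each lay within the probe set SD. Gfi1, a repressor needed for neutrophil development, was above the floor in knockout cells only, at 72.0 against 21.0, with a bound of 0.09.

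Markers of mature neutrophils did not follow the granule genes. Of 19 listed, 12 had a probe set, and Cxcr2, a chemokine receptor that defines mature neutrophils, lay below the floor on both arrays, at 31.5 in knockout and 17.0 in wild-type cells. Of the 11 measured, 1 was lower past the size rule and none higher, with a median of 0.07 and a summed signal over the list of 29355 in knockout and 28750 in wild-type cells. The brightest gene of that sum was Itgb2, an integrin gene of leukocytes in general, at 9852 in knockout and 8580 in wild-type cells. Without it the list summed to 19503 in knockout and 20170 in wild-type cells, so the direction of the sum rested on Itgb2. Trem1, an activating receptor, was the lower one, at 305 in knockout and 434 in wild-type cells. Ltb4r1, a leukotriene receptor gene, was higher by 0.28, above the probe set SD of 0.25 among high-signal genes and short of the size rule. Csf3r, the G-CSF receptor gene (0.20), and Padi4, the histone-modifying enzyme of neutrophil traps (0.20), were higher within the probe set SD. So were Mxd1 (0.20, with 1 of 2 measured probe sets higher), Stfa2l1, a stefin (0.07), and Cd24a (0.02). Wfdc21, at 5887 in knockout and 6768 in wild-type cells (-0.20), and Il1r2 (-0.009) were lower within it. Without regard to size, 7 of the 11 measured markers were higher and 4 lower. Fpr2, a formyl peptide receptor gene, was at 7914 in knockout and 7941 in wild-type cells.

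Markers of other cells that such cultures can hold also differed between the arrays, and their part in these results was not tested. Of 9 mast cell and basophil genes with a probe set, 7 were measured. Of these, 4 were lower past the size rule, against 13.8% of all measured genes, with a median of -0.49. Across the processing alternatives that median ran from -0.90 to -0.14. The list had a summed signal of 1871 in knockout and 3505 in wild-type cells, most of it from Hdc, at 1411 and 2624. Without Hdc it summed to 460 in knockout and 882 in wild-type cells. Cma1 was higher, by 0.15. Of the 7, Mcpt8, Cpa3 and Ms4a2 lay above the floor in wild-type cells only and could count only as lower. Mcpt8, a basophil protease, was at least 2.68-fold lower. Progenitor genes were mostly dim: Cd34, Myb, Mecom and Hlf lay below the floor on both arrays. With signal below the floor included, the list summed to 613 in knockout and 673 in wild-type cells. Of the 4 measured progenitor genes, 2 were higher and 1 lower past the size rule, against 15% and 13.8% of all measured genes. Their median was 0.17, but its sign depended on the processing. It was -0.15 with the mean of all probe sets of a gene and -0.05 without a floor. Flt3, above the floor in knockout cells only, was at least 1.31-fold higher and could count only as higher. Sox4 differed by 0.41, with 1 of 2 measured probe sets higher, Gata2 by -0.49 and Kit by -0.05. For Meis1 the probe set used lay below the floor on both arrays, while 1 of its 3 probe sets was measured, with a difference of -1.08. Eosinophil genes summed to 405 in knockout and 416 in wild-type cells, with the eosinophil peroxidase gene Epx below the floor on both. Its 2 measured genes differed in opposite directions, Prg2, the major basic protein gene, by -0.45 and Siglecf, a lectin of eosinophils and macrophages, by 0.63. Of 10 measured monocyte and macrophage genes, 3 were higher and 1 lower past the size rule, with a median of 0.20, and they summed to 37875 in knockout and 36651 in wild-type cells. The higher ones were Mrc1, the mannose receptor gene (2.08-fold higher), Ccr2, which marks inflammatory monocytes (0.84, with 3 of 4 probe sets higher), and Mertk, an uptake receptor gene (0.81). The lower one was Cd14, the LPS co-receptor gene (-0.43), and Fcgr1 (-0.24) and Cx3cr1 (-0.19) were below 0 short of the rule. Without Csf1r, the brightest gene, the list summed to 26607 in knockout and 26825 in wild-type cells.

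Genes linked to calprotectin and lipocalin 2 outside the granules were also mixed. Among reported calprotectin receptors and partners, Tlr4, the LPS receptor gene, differed by 0.01, its co-receptor gene Cd14 was at 7911 in knockout and 10690 in wild-type cells (-0.43), and Cd36, a scavenger receptor gene, was 0.41 higher with 3 of 3 probe sets. Ager, which encodes the receptor RAGE, was above the floor in knockout cells only and at least 1.54-fold higher. Cd69 (-0.318), Bsg (-0.29) and Ly96 (-0.24), from the same list, lay below 0 but short of the size rule. Thus 4 of the 7 receptors and partners lay below 0, and the middle one of the 7 was Ly96. Nfkbiz, which encodes IκBζ, a cofactor for Lcn2 transcription, was at 881 in knockout and 1421 in wild-type cells, 1.61-fold lower with 3 of 3 probe sets, whereas Lcn2 itself differed by 0.01. Saa3, an acute phase gene among the brightest like Lcn2, was at 14411 in knockout and 15430 in wild-type cells, and Ptx3, a soluble pattern receptor, was 1.49-fold lower. Of the 8 measured genes in this LPS-inducible group, 1 was higher and 3 lower past the size rule, with a median of -0.13.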

How the data were processed

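Expression was measured on 2 Affymetrix arrays, 1 per genotype. The authors deposited 1 table of linear intensity for 45101 probe sets, per the file headers; how it was summarised and scaled is not given in the sources used. Per the labels' protocols, 6 ug of total RNA went into biotinylated cRNA. After removal of 64 control probe sets, log2 intensities (45037 probe sets) were quantile normalized, with a floor at their median. Probe sets naming 1 gene (34945) were used, a gene being represented by the one of highest mean, and 9160 were unnamed here. Names came from the platform annotation, updated through RefSeq (GRCm38.p6), which held 18032 of the 18193 genes. Differences, counts and medians were computed in Python 3.11.15. A simulation with a constant shift between arrays checked only the median difference recovered for changed genes of higher signal. It did not cover counts, calls at the floor or dim genes. Members and gene lists were chosen with earlier results of these data known. All members were named. Of related lists all measured genes could be named, or, above 12 measured genes, the 3 highest and lowest differences, and genes next to a member were added after their values were seen. With 2 arrays a gene has 1 ratio, so none was named for a pattern like a member's. The number of arrays limits the precision. Alternatives were 4 other scalings, 2 other floors and 2 other choices of probe set.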

Additional observations from a re-analysis of the deposited data

How the results depend on the processing

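Results were recomputed under 8 alternatives, and a value was taken as moved where it shifted by more than the probe set SD of 0.29. Without scaling all 9 members moved. The difference of S100a9 was 0.18, of Camp 0.024, of Ngp 0.18, of Prtn3 0.0045 and of Elane 0.14. S100a8 was at 0.94, Lcn2 at 0.35, Mpo at 0.36 and Ltf at -0.38. The median of primary granule members was 0.14, of secondary granule members 0.10 and of calprotectin genes 0.56. Then 3 members were higher and 1 lower past the size rule of 0.32, against 73.7% and 1.77% of measured genes. This setting keeps the shift of 0.54 at the median measured gene. Lower past that rule were 3 members with median centring (8.95% of measured genes), 3 with hybridisation controls (6.64%) and 3 with a floor at percentile 75 (9.31%), under which 5 members were measured, against 6 (13.8%) as reported. The 3 were Camp, Ltf and Prtn3 under both scalings and S100a9, Camp and Prtn3 with the higher floor. S100a9, Ngp and Elane were at -0.24, -0.25 and -0.29 with centring and at -0.17, -0.17 and -0.22 with hybridisation controls. When _x_at and _s_at probe sets were left out, S100a8 has no value, so the calprotectin median was -0.41, the contrast with the granule members -0.050 and the count of higher members 0. In alternatives chosen after seeing the data, that contrast was 0.79 with S100a8 alone, -0.050 with S100a9 alone and 0.46 without Lcn2. Dim genes are limited by their closeness to the floor and bright ones by the top of the range. No paired analysis was possible because each genotype has 1 array.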

Other observations

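The other marker lists complete the view of the cultures. Of 12 measured dendritic cell genes, 3 were higher and 5 lower past the size rule of 0.32 on the log2 scale, with a median of -0.23 and a summed signal of 32606 in knockout and 36478 in wild-type cells. B and plasma cell genes with a probe set summed to 409 in knockout and 1683 in wild-type cells, and all 5 measured ones were lower past the rule. Of these, 3 lay above the floor in wild-type cells only and could count only as lower. The brightest gene of the list, Ighm, was at 142 in knockout and 734 in wild-type cells. Its 8 measured probe sets disagreed, with 5 lower and 3 higher, from -3.73 to 0.50. With the mean of all probe sets of a gene the list median was -0.55, against -1.91 with the brightest probe set. Erythroid genes summed to 3158 in knockout and 5530 in wild-type cells, and most of this was Car2, a carbonic anhydrase gene also expressed outside erythroid cells, at 2348 in knockout and 4788 in wild-type cells. Without Car2, left out after its value was seen, they summed to 810.1 in knockout and 742.6 in wild-type cells. The transferrin receptor gene Tfrc had a difference of 0.22. The globin gene Hba-a1 and the haem enzyme gene Alas2 lay below the floor on both arrays.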
